A study of Mus musculus with 16 samples.

Results

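Long protein-coding loci are the genes over which RNA polymerase II (Pol II) travels farthest before a transcript is complete. They were taken here as the protein-coding entries of the deposited gene tables whose locus spans at least 200 kb, with the collagen genes left out, and they number 1305 of 20164 protein-coding entries, in tables of 23996 genes. The RNA sequencing compared Ssu72-depleted with control cells in mouse embryonic fibroblasts (MEFs), hepatocytes and embryonic stem (ES) cells of the C57BL/6 strain. Both arms of each comparison were Ssu72 f/f cells, in which the first exon of Ssu72 is flanked by loxP sites. Control cells (labelled WT) received an adenovirus that carries luciferase (Ad-Luc) and depleted cells (labelled KO) an adenovirus that carries Cre recombinase (Ad-Cre). MEFs came from embryos at day 13.5 and hepatocytes from mice labelled 6 weeks old, with 3 libraries in each group, and ES cells came from the inner cell mass, with 2 libraries in each group. Cre acts where the virus enters, so Ad-Cre cultures can hold cells with the intact allele.

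Ssu72 is a phosphatase of the C-terminal domain (CTD) of Pol II that removes phosphate from Ser5 and Ser7. As background, a polymerase that has left the promoter must stay on the template through every intron, and the time needed to finish a transcript grows with the length of the gene. Genes of this size code above all for cell adhesion and axon guidance receptors, matrix proteins, ion channels, scaffolds of the cytoskeleton and large signalling enzymes, and most of their length is intron. Factors that help Pol II elongate, such as P-TEFb, the PAF complex and the CDK12 and CDK13 kinases, are known to matter more for long genes than for short ones in several cell types.

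The windows just before the transcription start are shown for the genes that were farthest apart in MEFs among members whose own gene also spans at least 200 kb. Gpm6a and Chl1 had the lowest Ad-Cre to Ad-Luc ratios, and Nrcam and Sema3e the highest. Each sequence is the 150 bases before the outermost start in RefSeq (GRCm38.p6), all on the plus strand, in lower case with the GC box GGGCGG, or CCGCCC where it lies on the other strand, in capitals.
Gpm6a (chr8:54779284-54779433): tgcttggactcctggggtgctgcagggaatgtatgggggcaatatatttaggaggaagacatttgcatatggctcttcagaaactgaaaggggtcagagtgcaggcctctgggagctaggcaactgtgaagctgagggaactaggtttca
Chl1 (chr6:103510726-103510875): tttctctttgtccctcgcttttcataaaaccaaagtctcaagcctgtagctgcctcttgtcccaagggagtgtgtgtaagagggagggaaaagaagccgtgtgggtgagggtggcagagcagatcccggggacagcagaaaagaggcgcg
Nrcam (chr12:44328735-44328884): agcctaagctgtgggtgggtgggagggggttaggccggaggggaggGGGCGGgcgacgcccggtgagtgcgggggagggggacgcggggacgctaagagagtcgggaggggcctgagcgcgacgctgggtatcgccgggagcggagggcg
Sema3e (chr5:14025126-14025275): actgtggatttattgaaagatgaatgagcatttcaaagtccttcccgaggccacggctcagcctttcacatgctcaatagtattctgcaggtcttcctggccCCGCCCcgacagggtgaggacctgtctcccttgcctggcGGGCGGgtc
The GC box was found once before Nrcam and at 2 places before Sema3e. It was not among the letters of the Gpm6a and Chl1 windows, and on either strand it is held by 28.6% of the 32851 windows of this length in the table. The letters TATAAA, which 7.57% of those windows hold on either strand, occur in none of the 4. The Gpm6a window has 0 CpG dinucleotides and the Nrcam window 17, against a median of 4 over all windows. These matches describe the sequence only.

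The deposited tables give 1 FPKM value (fragments counted to a gene, scaled to the length of its transcripts and to the size of the library) per gene and group, pooled over its libraries by the authors. No SD or n can stand beside such a value, the depth of each library is unknown, and no difference below has a replicate check or a p-value. Higher and lower below mean an Ad-Cre to Ad-Luc ratio of FPKM values beyond 1.5-fold, and only genes of at least 1 FPKM in a group were counted. Ssu72, the targeted gene, was 22.7 FPKM in Ad-Luc and 3.69 FPKM in Ad-Cre MEFs, 26.0 and 5.12 FPKM in hepatocytes and 99.2 and 44.7 FPKM in ES cells, so that it was lower in each Ad-Cre group. Transcripts that lack the first exon alone would still be counted to the gene. Over all protein-coding genes the median log2 ratio was 0.033 (MEFs), 0.022 (hepatocytes) and 0.0083 (ES cells), whereas that of the cytosolic ribosomal protein genes was 0.26, -0.067 and 0.20, so that setting the ribosomal protein genes to 0 would move every gene by those amounts. Differences of medians between long and shorter loci do not depend on that choice, whereas the shares past 1.5-fold do. Levels of different cell types come from tables normalised separately. The fibroblast list (8 genes) summed to 3144 FPKM in Ad-Luc and 2707 FPKM in Ad-Cre MEFs, the hepatocyte list (8 genes) to 5723 and 4915 FPKM in hepatocytes, of which Alb gave 5207 and 4647 FPKM, and the ES cell list (8 genes) to 6510 and 6371 FPKM in ES cells. In hepatocytes 5 of the 8 hepatocyte markers were lower by more than 1.5-fold, namely Ttr (96.9 and 32.6 FPKM), Apoa1 (247 and 113 FPKM), Cps1 (12.3 and 3.94 FPKM), Serpina1a (57.8 and 32.9 FPKM) and Hnf4a (54.2 and 35.5 FPKM). The macrophage list (7 genes, 5 of them at 1 FPKM or more) summed to 167 and 177 FPKM in MEFs, with Clec4f at 0. With pooled values, fewer cells of a type and less RNA per cell cannot be told apart.

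The deposited locus of a gene is the stretch covered by it and by the genes merged with it, and so it can be longer than the gene. The 1305 members share 922 loci, of which 797 hold 1 member and 125 hold several. In RefSeq, 871 members span at least 200 kb by themselves, 420 are shorter and 14 could not be matched, and 318 of the shorter ones span less than 50 kb. The members thus comprise long genes and short genes that sit in long merged loci. The largest group in 1 locus is the protocadherin cluster on chromosome 18, from 36930285 to 37841872. Its 61 members include Slc25a2 and Taf7, which are not protocadherins. The protocadherins code for homophilic adhesion proteins and, in part, share exons, so that the split of reads among them is uncertain. In MEFs 28 of the 61 members reached 1 FPKM, of which 6 were lower and 0 higher in Ad-Cre cells (median log2 ratio -0.40). Next comes a gene-dense stretch of 672 kb on chromosome 10, from 79697305 to 80369637, with 43 members that include Rps15, Gpx4, Bsg, Gamt and Pcsk4. Of 37 measured there in MEFs, 3 were higher and 2 lower (0.24, below 0 when the ribosomal protein genes are set to 0). The members' longest intron had a median of 79.7 kb, against 5.14 kb in shorter loci, and their longest spliced transcript a median of 4.59 kb, against 2.73 kb. Of the 1305 members, 698 reached 1 FPKM in a group of MEFs, 532 did so in hepatocytes and 512 in ES cells, 413 did so in all 3 cell types, and 515 in none. MEFs had 180 members that reached this level in no other cell type, whereas hepatocytes had 34 and ES cells 37.

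In MEFs, long loci were lower in Ad-Cre cells more often than shorter ones. Of 698 long loci, 117 (16.8%) were lower and 30 (4.30%) were higher, where 8.85% of all 12498 genes measured were lower and 8.43% were higher. Among the 11045 shorter protein-coding loci, 7.99% were lower and 7.86% higher. The median log2 ratio was -0.15 in long loci, with quartiles of -0.44 and 0.14, and 0.044 in shorter loci (below 0 for both when the ribosomal protein genes are set to 0). Long loci were expressed at a lower level than shorter ones, with a median of 5.87 against 11.4 FPKM, so each was next compared with shorter loci of its own level, in 10 bins of the mean of both groups. Their ratio lay below that of shorter loci of equal level by a median of 0.21 on the log2 scale (-0.21), and 484 of 698 (69.3%) lay under the median of their bin. At equal level 8.53% of shorter loci would have been counted as lower and 9.74% as higher. The median of long loci was below that of shorter loci in 10 of 10 bins, from -0.19 against 0.16 in the bin of the lowest level to -0.14 against 0.085 in the bin of the highest. The offset was therefore not limited to weakly expressed genes, but it was small from 22.3 to 34.1 FPKM (0.011 against 0.028). Long loci were lower more often than shorter ones in 8 of 10 bins. The offset was smaller in genes expressed in every cell type. Of the 413 long loci that reached 1 FPKM in all 3 cell types, 31 (7.51%) were lower in MEFs, with a median of -0.068, against 4.503% of 9149 such shorter loci, with a median of 0.056, and the difference at equal level was -0.12. Of the 180 long loci that reached it in MEFs alone, 60 (33.3%) were lower, with a median of -0.37, against 29.7% of 696 such shorter loci, with a median of -0.15. Long loci of MEFs were thus more often restricted to MEFs, a class in which many shorter loci were lower too.

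The 8 lowest ratios in MEFs were those of Gpm6a, Chl1, Adamtsl1, Abi3bp, Gamt, Epha3, Angpt1 and Bicc1, of which Gamt alone is a short gene in a merged locus. Gpm6a, a membrane glycoprotein known from neurons, was 1.14 FPKM in Ad-Luc and 0.127 FPKM in Ad-Cre cells (log2 ratio -3.16). Chl1, a neural adhesion molecule of the L1 family on chromosome 6 (103510876 to 103733035, with 27 exons in its longest transcript), was 5.41 and 0.777 FPKM (-2.80). Both genes were weakly expressed, and the neural marker list (7 genes, 3 of them at 1 FPKM or more) summed to 26.8 and 25.4 FPKM in the same groups. Those 3 moved in different directions, with Nes at 5.25 and 7.77 FPKM, Stmn2 at 9.17 and 6.59 FPKM and Tubb3 at 11.3 and 10.4 FPKM. Adamtsl1, a secreted matrix protein, was 5.53 and 1.37 FPKM (-2.02). Abi3bp, another secreted matrix-binding protein, was 4.58 and 1.26 FPKM (-1.87). Epha3, an ephrin receptor tyrosine kinase, was 8.16 and 2.56 FPKM (-1.68). Angpt1, the ligand of the endothelial receptor Tek, was 7.58 and 2.38 FPKM (-1.67), and the RNA-binding protein gene Bicc1 was 11.1 and 3.51 FPKM (-1.66). Among members of high level, Fbn1, which codes for the microfibril protein fibrillin-1 on chromosome 2 (125300594 to 125506438), was 252 and 147 FPKM (-0.78). Slit3, a secreted guidance ligand of Robo receptors that spans 587 kb on chromosome 11, was 211 and 112 FPKM (-0.92), and the heparan sulfate proteoglycan gene Gpc3 was 80.3 and 46.7 FPKM (-0.78). Other long genes of high level stayed within 1.5-fold, such as Ext1 (101 and 89.1 FPKM, -0.18), Ltbp1 (57.9 and 61.0 FPKM, 0.074) and Cdh2 (59.4 and 73.5 FPKM, 0.31). In the bin of the highest level, from 69.1 FPKM, 16.7% of 30 long loci were lower and 0% higher. Of 1145 shorter loci in that bin, 9.43% were lower and 5.33% higher.

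The highest ratios in MEFs belonged in large part to short genes that share a long merged locus. Pcsk4, a proprotein convertase gene that spans 8.47 kb, was 0.580 FPKM in Ad-Luc and 12.8 FPKM in Ad-Cre cells (log2 ratio 4.46). Spef1, which codes for a microtubule-binding protein of cilia, was 2.56 and 13.4 FPKM (2.39), Grin3b, a glutamate receptor subunit, 0.741 and 3.27 FPKM (2.14), and Reep6 0.793 and 3.45 FPKM (2.12). Pcsk4, Grin3b and Reep6 all lie in the gene-dense locus on chromosome 10. The long genes among the 8 highest were the adhesion molecule Nrcam (1.09 and 3.41 FPKM, 1.64), the guidance ligand Sema3e (4.49 and 11.3 FPKM, 1.33) and Galnt14, which adds N-acetylgalactosamine to proteins (0.988 and 2.44 FPKM, 1.31). Zfp653, a zinc finger gene of 16.0 kb, was 5.72 and 12.8 FPKM (1.17). Long genes were thus found at both ends of the distribution, but in unequal numbers. Of the 468 members whose own gene spans at least 200 kb, 91 were lower and 19 higher.

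**Figure D1:**
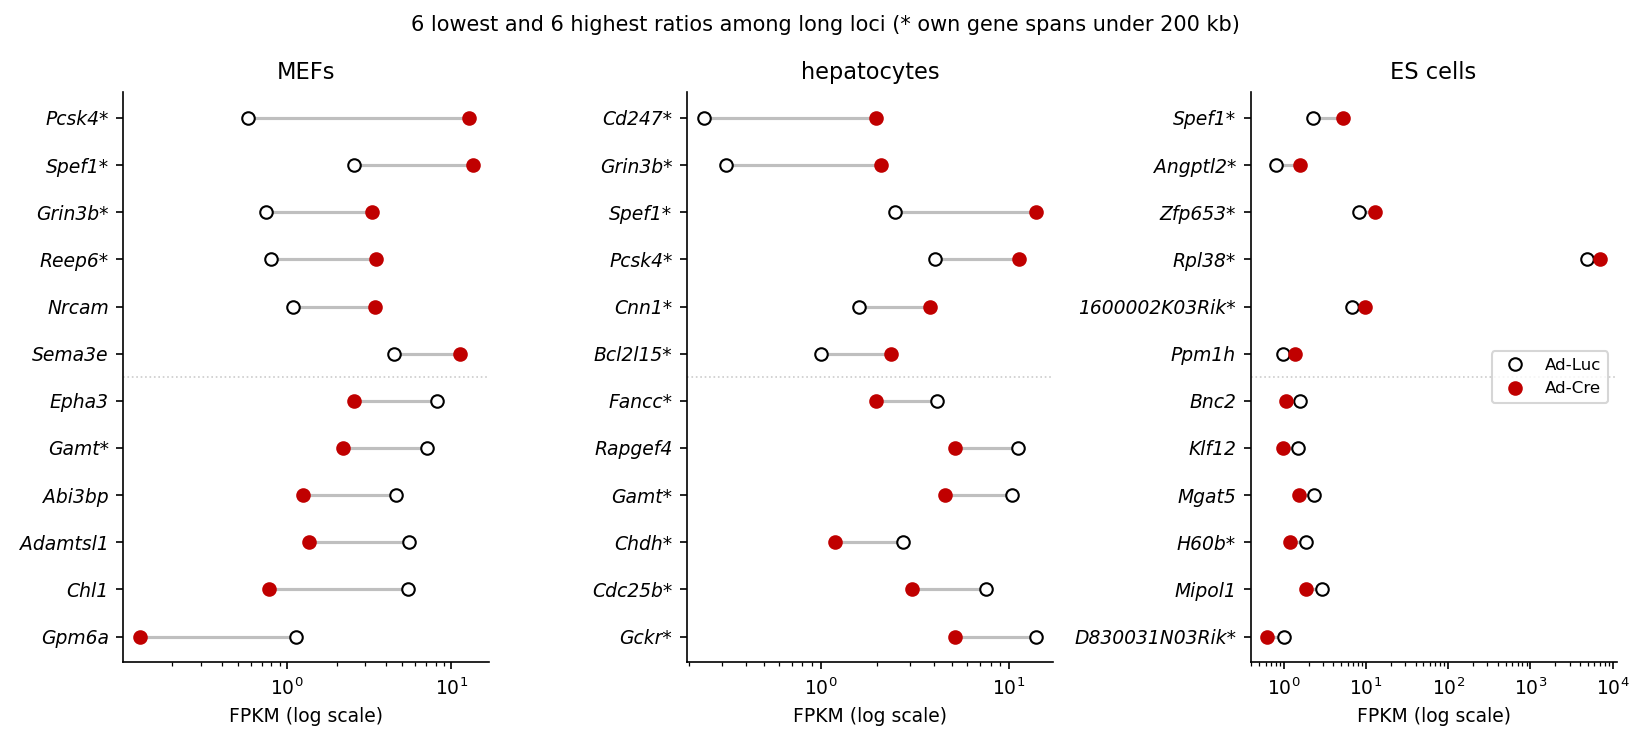
FPKM on a log axis of the 6 members with the lowest and the 6 with the highest Ad-Cre to Ad-Luc ratio in each cell type; open points are Ad-Luc, filled points Ad-Cre, and asterisks mark members whose own gene spans under 200 kb. In MEFs 5 of the 6 lowest are long genes, whereas all 6 of the highest in hepatocytes carry an asterisk.

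The offset was larger in longer genes. When protein-coding genes in MEFs were sorted by their own span in RefSeq, the median log2 ratio was 0.15 under 10 kb, 0.091 at 10 to 20 kb, 0.026 at 20 to 50 kb, -0.049 at 50 to 100 kb and -0.11 at 100 to 200 kb. It was -0.16 at 200 to 300 kb, -0.19 at 300 to 500 kb and -0.21 at 500 kb or more. Lower genes made up 7.77% of those under 10 kb, 11.8% of those of 100 to 200 kb and 21.5% of the 79 genes of at least 500 kb. Relative to genes of equal level and spliced length, the medians of the 3 longest classes were -0.12, -0.17 and -0.11, so that beyond 200 kb no further order with length was left by that measure. With the deposited locus in place of the gene, the classes at 200 to 300 kb, 300 to 500 kb and 500 kb or more did not separate, with medians of -0.15, -0.15 and -0.16. Across the 696 members with a known gene span, Spearman's rho between that span and the ratio was -0.18, while it was 0.012 between the deposited locus and the ratio. These correlations run over genes of 1 pair of pooled values, which are not independent replicates.

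Short genes inside long loci had a median close to that of shorter loci. The 155 members in MEFs whose own gene spans under 50 kb had a median log2 ratio of 0.070, against -0.19 in the 468 members of at least 200 kb (the first falls below 0 when the ribosomal protein genes are set to 0, the second stays below). Relative to shorter loci of equal level, the first differed by -0.0028 and the second by -0.24. Of the 155 short ones, 18 (11.6%) were lower and 11 (7.10%) higher, against 8.29% and 8.31% of shorter loci of equal level. In 12 loci a long gene and a short gene shared the same locus and were both measured in MEFs, and the long gene had the lower ratio in 7 of them, as it had in 8 of 10 such loci in hepatocytes and 6 of 11 in ES cells. Cacna1c, the pore-forming subunit of an L-type calcium channel, was 7.64 and 5.25 FPKM (-0.54), while Dcp1b beside it was 1.26 and 2.07 FPKM (0.71). Prkg1, a cGMP-dependent protein kinase gene of 1201 kb, was 3.86 and 2.86 FPKM (-0.43), while Cstf2t, a gene inside it, was 10.01 and 11.2 FPKM (0.16). The opposite order was seen for Ralgps1 (0.880 and 1.52 FPKM, 0.79) and Angptl2 within it (138 and 107 FPKM, -0.36). These pairs were chosen after their values were seen, and Cacna1c and Ralgps1 have the widest gaps in either direction.

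Long genes also have longer messages, and the ratio moved with spliced length as well. Across protein-coding genes, Spearman's rho between the length of the longest spliced transcript and the ratio was -0.27 over 11685 genes of MEFs, -0.45 over 11350 genes of ES cells and 0.10 over 11190 genes of hepatocytes, each over genes of the same pooled libraries. When each long locus was set against shorter loci of both equal level and equal class of spliced length (under 2, 2 to 4, 4 to 6 and over 6 kb), the median difference in MEFs was -0.13, in place of -0.21, and 443 of 693 (63.9%) lay under the median of their bin. Members of at least 200 kb by themselves differed by -0.15 in this comparison. Among messages of 4 to 6 kb, for example, the median log2 ratio was -0.23 in 170 long loci and -0.030 in 2264 shorter ones, and over 6 kb it was -0.21 in 255 and -0.11 in 1295. In MEFs the offset was thus smaller at equal spliced length but remained. Whether spliced length, RNA integrity or gene span set the ratio was not tested.

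**Figure D2:**
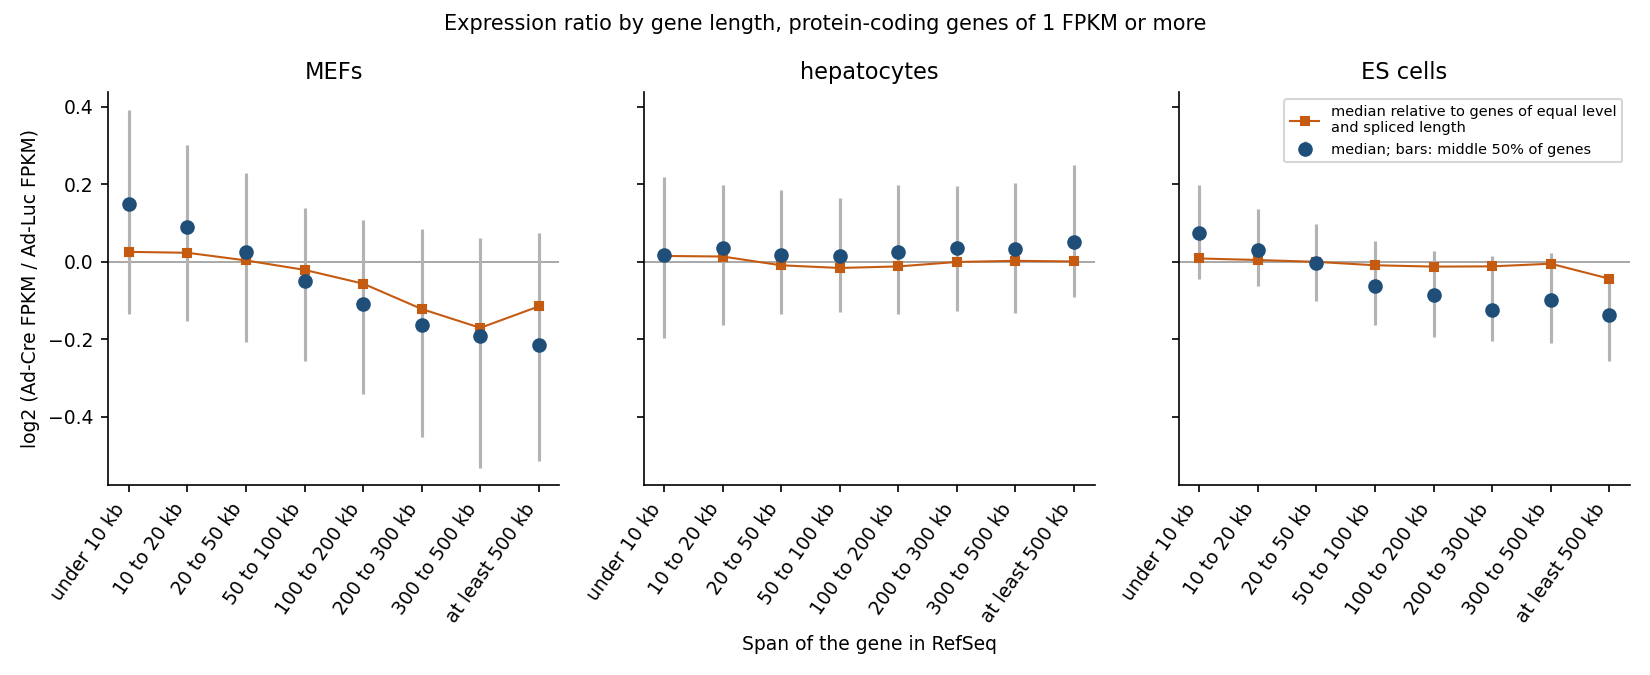
Median log2 ratio of Ad-Cre to Ad-Luc FPKM of protein-coding genes by their span in RefSeq, with bars from the lower to the upper quartile; squares give the median relative to genes of equal level and spliced length. In MEFs the circles fall from 0.15 to -0.21 and the squares to -0.17 at 300 to 500 kb and -0.11 in the longest class; in hepatocytes both stay near 0; in ES cells the circles fall and the squares lie between -0.043 and 0.0087.

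**Figure D3:**
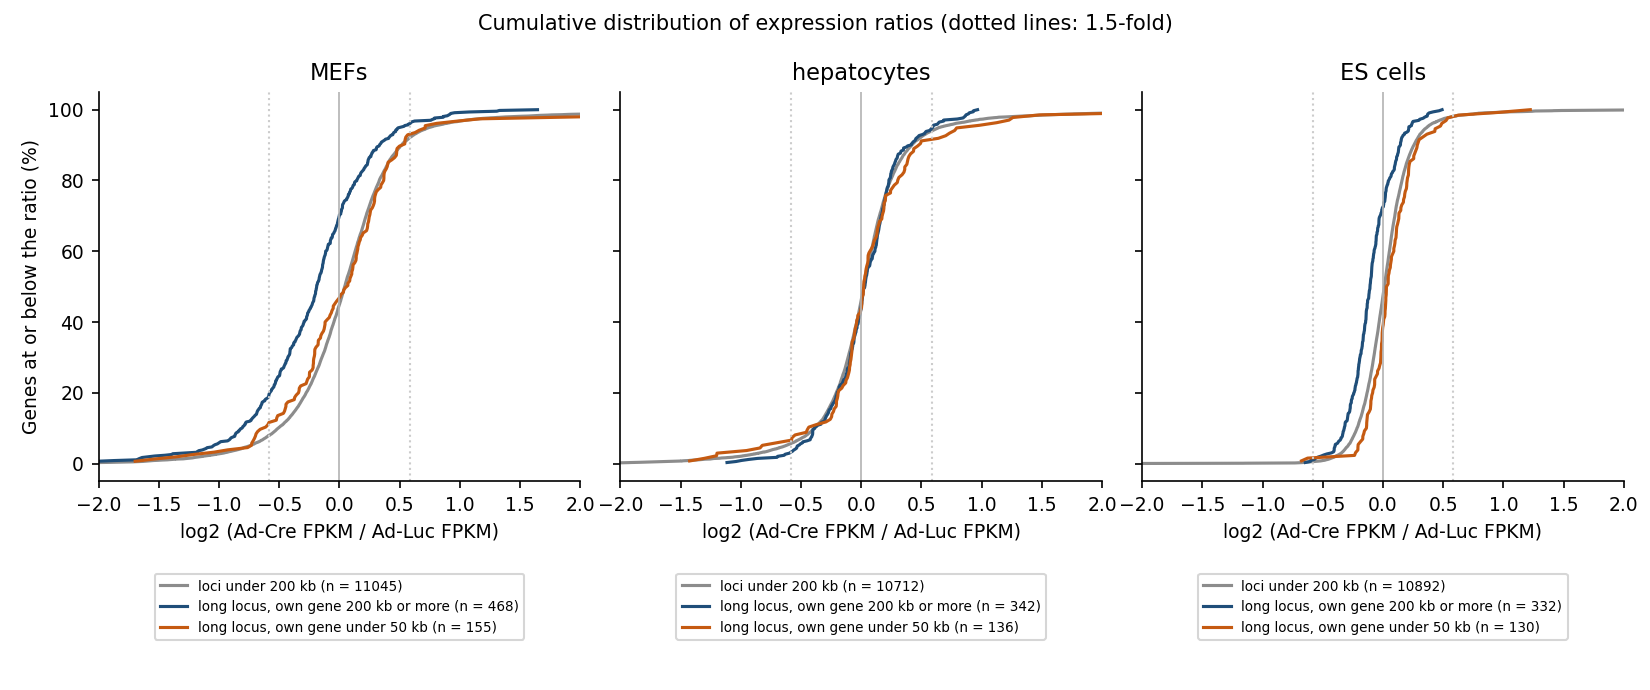
Cumulative share of genes (percent) at or below each log2 ratio of Ad-Cre to Ad-Luc FPKM, for loci under 200 kb and for long loci whose own gene spans at least 200 kb or under 50 kb, drawn from -2 to 2. In MEFs and ES cells the curve of the long genes is shifted to the left, to medians of -0.19 and -0.11, while that of the short genes in long loci has medians of 0.070 and 0.036.

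The roles of the lower members were followed with 8 lists. The matrix and proteoglycan list, whose long members build or modify the extracellular matrix, had the lowest median in MEFs. Of its 24 measured long members 12 were lower and 0 were higher, with a median log2 ratio of -0.68. The lower ones were Adamts2 and Adamts12, which are matrix proteases, Adamtsl1, Adamtsl3 and Thsd4, the fibrillins Fbn1 and Fbn2, the glypicans Gpc3 and Gpc6, Hmcn1, and the chondroitin sulfate enzymes Chsy3 and Csgalnact1. Among the fibroblast markers, the short matrix genes Dcn (821 and 473 FPKM) and Lum (314 and 150 FPKM) were lower as well, while Vim was 1233 and 1498 FPKM, and the part of a change in cell state or makeup in these values was not tested. Of 33 adhesion and guidance members 12 were lower, namely Chl1, Epha3, Gpm6a, Itga8, Lphn3, Robo1, Sema3d, Sema5a, Sema6d, Slit3, Tenm3 and Tenm4, and 4 were higher, Cdh4, Nrcam, Pcdh11x and Sema3e. Robo1, the receptor of Slit ligands, was 13.7 and 8.98 FPKM (-0.61), whereas Slit2 was 85.1 and 110 FPKM (0.38). Of these Slit and Robo genes, Slit3 and Robo1 passed 1.5-fold and Slit2 did not. With a pseudocount of 1 FPKM the ratio of Robo1 (-0.56) no longer passed.

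The remaining lists had negative medians too. The cytoskeleton list had 7 of 36 lower and 1 higher (median -0.24), and its palladin gene Palld, which organises actin, was 34.0 and 19.2 FPKM (-0.83). The kinase and GTPase list had 7 of 41 lower and 1 higher (-0.20). Metabolism and transport genes had 9 of 32 lower and 1 higher (-0.33), among them Chst11, a chondroitin sulfotransferase gene with 26.9 and 15.2 FPKM (-0.82), and the transporter gene Slco3a1 with 41.7 and 26.0 FPKM (-0.68). Transcription and chromatin genes had 10 of 50 lower and 1 higher (-0.11), channel and synapse genes 3 of 19 lower and 1 higher (-0.16), and growth factor signalling genes 0 of 12 either way (-0.12). Shorter loci in the same lists give the background of each role. In matrix genes their median was -0.45 (41 genes, 15 lower), in adhesion genes -0.43 (35 genes, 13 lower), in growth factor signalling genes -0.42 (49 genes, 15 lower), and in cytoskeleton genes -0.32 (19 genes, 0 lower), so that in the adhesion, growth factor and cytoskeleton lists the shorter loci had the lower median. Metabolism and transport genes had a median of -0.33 in long and in shorter loci, of which 19 of 67 were lower. Shorter channel and synapse genes had a median of 0.018 (below 0 when centred on all protein-coding genes), with 0 of 7 lower and 1 higher. In transcription and chromatin genes the shorter loci had a median of -0.031 and 1 of 66 was lower, and in kinase and GTPase genes -0.064 and 3 of 36. The 453 long loci in none of these lists had a median of -0.13, with 58 lower and 21 higher. The lists were written with earlier results of these data known, and their medians are descriptions.

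**Figure D4:**
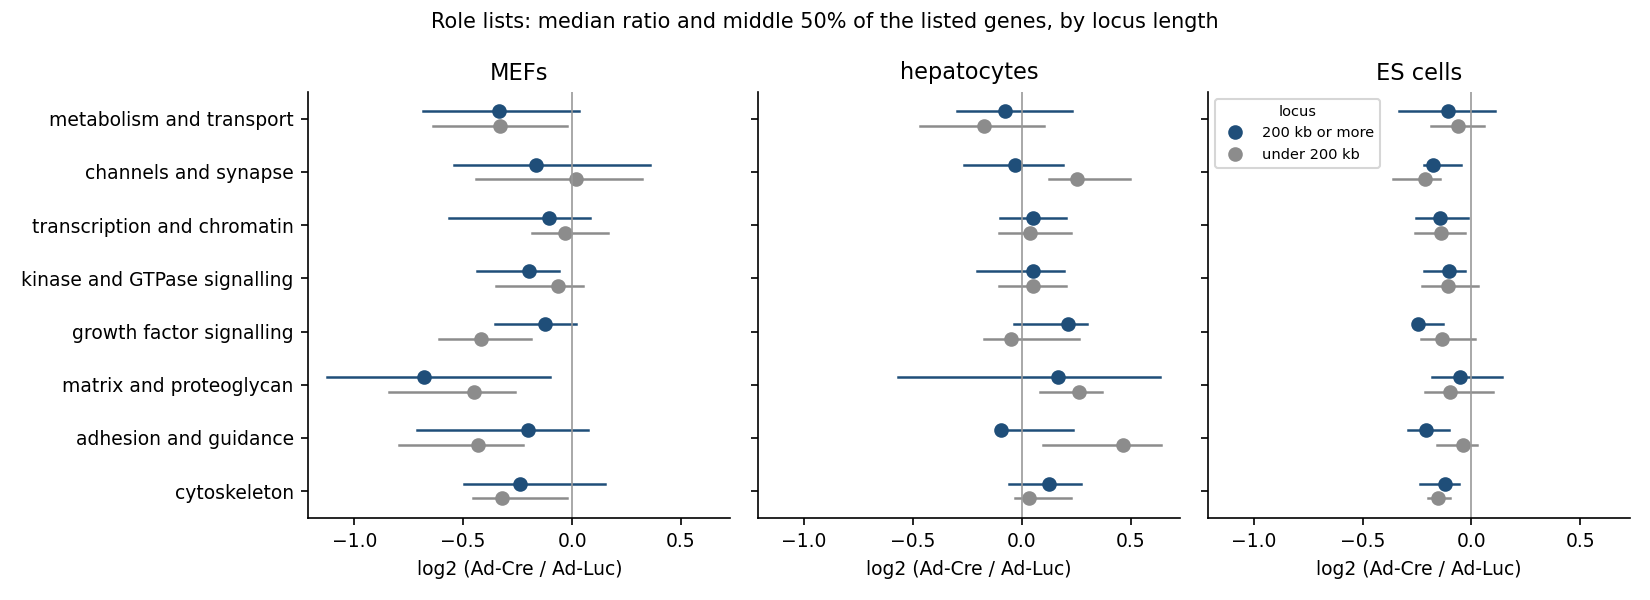
Median log2 ratio of Ad-Cre to Ad-Luc FPKM (points) and the range from the lower to the upper quartile (lines) for 8 role lists, with loci of at least 200 kb and shorter loci of the same list side by side. In MEFs every long series has a median below 0, from -0.68 for matrix to -0.11 for transcription and chromatin, and the shorter loci of the adhesion, growth factor and cytoskeleton lists lie lower still.

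In hepatocytes, the median of long loci lay close to that of shorter ones, and fewer long loci passed 1.5-fold than shorter loci of equal level. Of 532 long loci 19 (3.57%) were lower and 34 (6.39%) higher, where 5.91% of all 12008 genes measured were lower and 6.55% higher, and 5.62% and 6.01% of shorter protein-coding loci. The median log2 ratio was 0.017 in long and 0.022 in shorter loci (-0.0050 and 0.00027 when centred on all protein-coding genes), and the median difference at equal level was -0.011. At equal level 6.49% of shorter loci would have been counted as lower and 8.39% as higher, against 3.57% and 6.39% of long loci. Members whose own gene spans at least 200 kb were lower in 2.92% of cases, against 6.84% of shorter loci of equal level. The median of long loci was below that of shorter loci in 6 of 10 bins of level. The class of genes of at least 500 kb had a median of 0.052, and no order with length was seen. The 8 lowest were Gckr (13.9 and 5.17 FPKM, -1.43), which codes for the inhibitor of glucokinase, Cdc25b, Chdh, Gamt, Rapgef4 (11.2 and 5.17 FPKM, -1.11), Fancc, Gpc3 and Gfra1 (9.37 and 4.71 FPKM, -0.99). Gckr, Cdc25b, Chdh and Gamt are short genes in merged loci. Rapgef4, an exchange factor for Rap that binds cAMP, and Gfra1, a receptor for GDNF, are long genes.

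The highest in hepatocytes were Cd247, Grin3b, Spef1, Pcsk4, Cnn1, Bcl2l15, Cnn2 and Adamtsl5, all of them genes that span under 200 kb. Cd247, the zeta chain of the T cell receptor complex, was 0.238 and 1.97 FPKM (3.05), and the calponin genes Cnn1 and Cnn2, whose proteins bind actin, were 1.59 and 3.82 FPKM (1.26) and 24.9 and 54.3 FPKM (1.12). Long genes with higher values in Ad-Cre hepatocytes included Ptprk, a receptor tyrosine phosphatase (85.3 and 137 FPKM, 0.69), and Large, a glycosyltransferase of dystroglycan (19.0 and 29.4 FPKM, 0.63), whereas Lpp, an adaptor of focal adhesions, was 20.4 and 30.4 FPKM (0.58), just under 1.5-fold. Of the 28 long members of the cytoskeleton list 2 were lower and 0 higher, with a median of 0.13, against 0.033 in 17 shorter loci (1 lower). In adhesion genes the median was -0.096 in 9 long loci (1 higher) and 0.46 in 15 shorter ones (4 higher). It was -0.033 and 0.26 in channel and synapse genes, and 0.21 and -0.050 in growth factor signalling genes. These last values below 0 rise above 0 when the ribosomal protein genes are set to 0. The fibroblast list summed to 607 FPKM in Ad-Luc and 969 FPKM in Ad-Cre hepatocytes, of which Vim gave 604 and 966 FPKM, while Lum was 0.0335 and 0.0627 FPKM and Dcn 1.16 and 0.981 FPKM. The part of other cell types in these values was not tested.

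In ES cells the offset was small and went with the length of the message. Of 512 long loci 5 (0.977%) were lower and 3 (0.586%) higher, where 0.845% of all 12072 genes measured were lower and 2.39% higher, and 0.505% and 1.90% of shorter protein-coding loci. The median log2 ratio was -0.073, against 0.012 in shorter loci (below 0 for both when the ribosomal protein genes are set to 0), and 328 of 512 (64.1%) lay under the median of shorter loci of equal level, with a median difference of -0.069. In members whose own gene spans at least 200 kb the median was -0.11, with 240 of 332 (72.3%) below 0, against 47.9% of all genes measured, 51.7% of shorter loci of equal level and 66.9% of shorter loci of equal level and spliced length. At equal level and spliced length the difference was -0.0074, and 267 of 508 (52.6%) lay under the median of their bin. Messages over 6 kb had a median of -0.16 in 182 long loci and -0.16 in 1263 shorter ones, and those under 2 kb 0.10 in 60 and 0.11 in 2934. At equal spliced length, long and shorter loci could thus hardly be separated in ES cells.

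The 5 lower members in ES cells were D830031N03Rik, Mipol1, H60b, Mgat5 and Klf12. Mipol1 was 2.91 and 1.86 FPKM (-0.64), Mgat5, a branching enzyme of N-glycans, 2.31 and 1.52 FPKM (-0.60) and the repressor gene Klf12 1.47 and 0.969 FPKM (-0.60). D830031N03Rik, which lies in the same locus as Macf1, was 1.00 and 0.629 FPKM (-0.68). Values of this size at 1 to 3 FPKM have no measure of error here, and with a pseudocount of 1 FPKM none of the 5 passed 1.5-fold. Among the next lowest were Bnc2, a zinc finger gene (1.57 and 1.06 FPKM, -0.57), and Atrnl1 (2.33 and 1.60 FPKM, -0.54). The 3 higher members were Spef1 (2.27 and 5.31 FPKM, 1.22), Angptl2 (0.799 and 1.55 FPKM, 0.96) and Zfp653 (8.24 and 12.7 FPKM, 0.63), each a short gene in a merged locus. With the same pseudocount Angptl2 (0.50) and Zfp653 (0.57) did not pass 1.5-fold. All 5 long growth factor signalling members and 9 of 10 long adhesion members had ratios below 0, with medians of -0.24 and -0.21 and no member past 1.5-fold. In the shorter loci of these lists 72.2% and 70.6% were below 0. In the other lists the long loci below 0 ranged from 2 of 4 matrix genes and 15 of 24 metabolism and transport genes to 8 of 9 channel and synapse genes.

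Members past 1.5-fold in the same direction in different cell types were counted next, and the 3 comparisons share no samples. Of 413 members measured in all 3, the median log2 ratio was -0.068 in MEFs and -0.068 in ES cells, and 0.029 in hepatocytes. The 117 members lower in MEFs included 31 of these 413 and 60 of the 180 that were under 1 FPKM in both other cell types. Of the 46 that were measured in hepatocytes as well, 7 were lower there, which is 15.2% of those 46 and 53.8% of the 13 lower in hepatocytes, where 2.73% of the 477 members measured in both were lower. In shorter loci the same overlap was 92 of 572 (16.1%), where 3.32% of 9828 were lower in hepatocytes. They were Fancc, Gamt, Gfra1, Gpc3, Mylk, Pdzrn3 and Sntb1. Fancc, a gene of the Fanconi anaemia DNA repair pathway, was 3.49 and 1.25 FPKM in MEFs and 4.14 and 1.97 FPKM in hepatocytes (-1.48 and -1.07), and Mylk, myosin light chain kinase, was 1.92 and 0.638 FPKM and 7.69 and 4.75 FPKM (-1.59 and -0.69). No member was lower by more than 1.5-fold in all 3 cell types. MEFs and ES cells had 2 lower members in common, D830031N03Rik and Mgat5. They were 4.76% of 42 lower in MEFs, where 1.10% of 454 were lower in ES cells. In shorter loci it was 7 of 515 (1.36%), where 0.362% of 9670 were lower in ES cells. Hepatocytes and ES cells had 1 in common, Mipol1, of 9 lower in hepatocytes, where 0.922% of 434 were lower in ES cells. In shorter loci it was 5 of 281 (1.78%), where 0.337% of 9487 were lower in ES cells.

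Opposite calls in MEFs and hepatocytes were found for 8 of the 477 members measured in both. All of them except Mipol1 were among the 46 lower in MEFs, as many as the 7 lower in both cell types. Of the 477 members, 31 were higher and 13 lower in hepatocytes. How often shorter loci had opposite calls was not counted. Cnn1 was 12.5 and 7.37 FPKM in MEFs (-0.76), against its higher value in Ad-Cre hepatocytes (1.26). Pmp22, a myelin protein gene also expressed in fibroblasts, was 142 and 86.5 FPKM in MEFs (-0.72) and 52.5 and 90.0 FPKM in hepatocytes (0.78). Slco3a1, Cnn2, Dysf, Glis3 and Ppm1l had the same pattern, lower in MEFs and higher in hepatocytes, while Mipol1 had the reverse, with 1.400 and 2.65 FPKM in MEFs (0.92) and 1.38 and 0.913 FPKM in hepatocytes (-0.60). Dysf, which codes for the membrane repair protein dysferlin, was 6.61 and 4.17 FPKM (-0.67) and 1.55 and 2.49 FPKM (0.68).

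**Figure D5:**
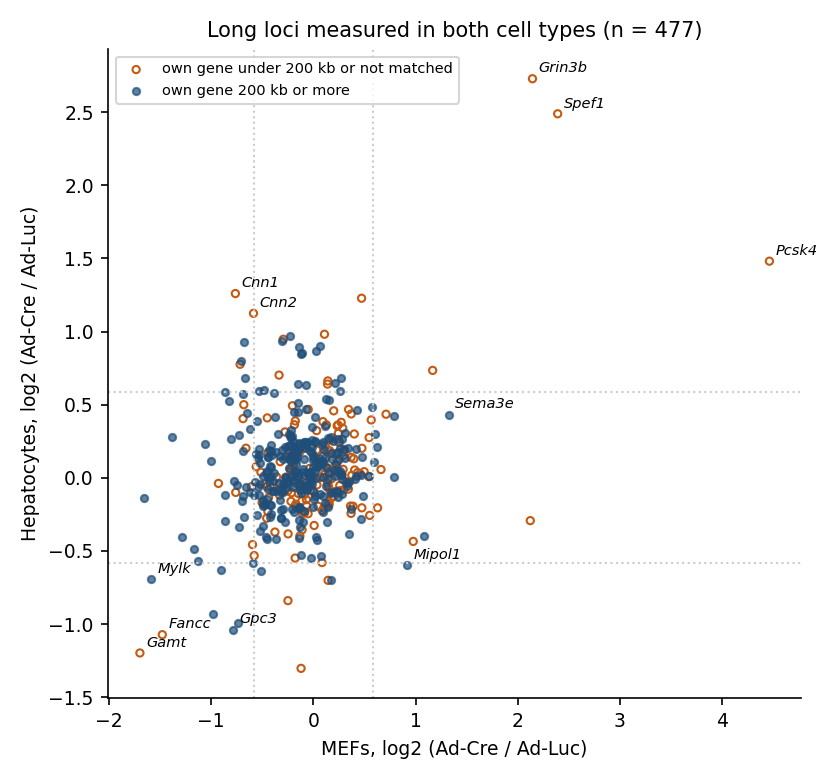
Log2 ratio of Ad-Cre to Ad-Luc FPKM in MEFs (x axis) and hepatocytes (y axis) of the 477 long loci measured in both, with dotted lines at 1.5-fold; filled points are members whose own gene spans at least 200 kb. Pcsk4, Spef1 and Grin3b stand apart at the upper right, and the long genes spread along the x axis to the left of 0.

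Spef1 and Zfp653 were the only members higher in all 3 cell types, of which Spef1 alone was so in ES cells with a pseudocount of 1 FPKM. In both MEFs and hepatocytes 4 members were higher, Grin3b, Pcsk4, Spef1 and Zfp653. They were 23.5% of the 17 higher in MEFs and measured in both. In shorter loci the same overlap was larger, with 210 of 647 (32.5%). For MEFs and ES cells it was 2 of 21 members (9.52%) and 59 of 628 shorter loci (9.39%). Shared higher calls were thus not clearly more common in members than in shorter loci. Grin3b, Pcsk4, Spef1 and Zfp653 are all short genes close to another gene. Of these, Grin3b and Zfp653 alone begin within 2 kb of the end of a same-strand gene. In RefSeq coordinates (GRCm38.p6), Spef1 (chromosome 2, 131170261 to 131174810, minus strand) lies downstream of Cenpb (131177289 to 131180067, same strand), a centromere protein gene that was 60.5 and 67.0 FPKM in MEFs. Spef1 was 2.49 and 13.99 FPKM in hepatocytes, where Cenpb was 57.6 and 55.3 FPKM. Zfp653 (chromosome 9) begins 39 bp after the end of Ecsit on the same strand, and Ecsit was 6.97 and 8.25 FPKM in MEFs, when Zfp653 went from 5.72 to 12.8 FPKM. Grin3b (chromosome 10) begins 1149 bp after Wdr18 on the same strand, and it was 0.315 and 2.09 FPKM in hepatocytes, with Wdr18 at 17.0 and 18.7 FPKM. These neighbours upstream were within 1.5-fold in MEFs and hepatocytes. Pcsk4 (80321283 to 80329748, minus strand) and Reep6 (80329997 to 80336441, plus strand) stand head to head. Grin3b (79970397 to 79977190) overlaps Tmem259 (79977120 to 79984325, other strand) only at the end of each gene. Reads within that short overlap cannot be told apart without strand. Although the library kit marks strand, whether the counting used it is not given in the sources used here.

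The longest members were measured as well. Ptprd, a receptor tyrosine phosphatase gene of 2271 kb on chromosome 4 (75941237 to 78211895), was 3.80 and 3.14 FPKM in MEFs (-0.27) and 21.7 and 25.1 FPKM in hepatocytes (0.21). Dmd, the dystrophin gene on the X chromosome, was 2.00 and 1.35 FPKM in hepatocytes (-0.56) and 2.55 and 2.39 FPKM in ES cells (-0.09), and stayed below 1 FPKM in MEFs (0.773 and 0.661). Pde4d, a cAMP phosphodiesterase gene of 1302 kb, was 4.64 and 3.78 FPKM in MEFs (-0.30), 1.93 and 2.11 FPKM in hepatocytes (0.13) and 2.61 and 2.42 FPKM in ES cells (-0.11). Magi2, a synaptic scaffold gene of 1485 kb, and Lrrc4c, a netrin-G ligand gene of 1314 kb, were instead 1.398 and 1.91 FPKM (0.45) and 1.97 and 2.45 FPKM (0.31) in MEFs. Auts2, a gene of 1106 kb linked to neurodevelopment, was 1.68 and 3.05 FPKM in hepatocytes (0.87), and it was the one gene among the 5 longest of each cell type that passed 1.5-fold. In MEFs it was 5.12 and 5.21 FPKM (0.026). Members at the highest levels were mostly short genes in merged loci, such as Rpl38, Rps15, Bsg and Gpx4, and the exceptions were App (956 and 857 FPKM in MEFs, -0.16) and the drug transporter gene Abcc4 (209 and 258 FPKM in hepatocytes, 0.30).

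The length limit cuts through a continuous range. The 3 members just inside it were Plcxd3 (200089 bp), Pcbp3 (200094 bp) and Gm10024 (200201 bp), of which Pcbp3, an RNA-binding protein gene, alone reached 1 FPKM, with 3.58 and 3.90 FPKM in MEFs and 5.62 and 4.83 FPKM in ES cells. Just outside lay Lrig1 (80.1 and 67.3 FPKM in MEFs), Slc25a26 (2.25 and 2.93 FPKM) and Atp9b (25.2 and 22.5 FPKM). Genes of the elongation machinery, none of which is a member, stayed within 1.5-fold with few exceptions. Of 38 measured in MEFs 0 were higher and 0 lower, with a median log2 ratio of 0.13, of 38 in hepatocytes 1 was lower (Top2a, 29.8 and 18.5 FPKM, -0.68) and of 39 in ES cells 1 was lower (Cdk12, 17.3 and 10.7 FPKM, -0.69). Cdk12, a kinase of CTD Ser2, was 5.92 and 3.99 FPKM in MEFs (-0.57) and 7.56 and 5.21 FPKM in hepatocytes (-0.54).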

How the data were processed

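Total RNA was sequenced in 16 samples of 3 cell types. The study's methods give a stranded total RNA kit and alignment to mm10 with TopHat. The submitters' processing notes list TopHat2 2.0.13, Cuffdiff 2.2.0, CASAVA, DESeq and edgeR, and the tables have the layout of Cuffdiff, whereas the methods name Partek E/M and DESeq2. ERCC spike-ins were added per the methods, and no scaling to them was used here. The authors deposited, for each cell type, 1 FPKM value per gene and group, pooled over its libraries. Their fold change, test statistic, p and q columns hold the study's own comparisons and were not used, nor were 9 further tables.

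Locus length was taken from the deposited locus. The own span of a gene came from RefSeq (GRCm38.p6) and the longest spliced transcript and strand from GENCODE M21, which share the build of the files. The log2 ratio was Ad-Cre over Ad-Luc FPKM with no pseudocount, over genes of at least 1 FPKM in a group, and more than 1.5-fold counted as higher or lower. Long loci were compared with shorter protein-coding loci in 10 bins of mean FPKM, using bins with at least 20 shorter loci. The comparison was tested on simulated data with a known offset. That simulation held no effect of spliced length or of reads shared between genes, so it checks the calculation only. Python 3.11.15, numpy 2.4.6, pandas 2.3.3 and matplotlib 3.10.9 were used.

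Named genes were the 8 lowest and 8 highest ratios, the 5 longest and 5 highest in level per cell type, members past 1.5-fold in all 3, up to 4 of the highest level per role list, and 3 on either side of the length limit. The rule gives 127 genes, of which the text describes a part, and 1 is not reported here. Other genes named were chosen after their values were seen. The members and lists were chosen with earlier results of these data known. Alternatives covered pseudocounts, level minimums, length limits, folds, centring, bins and overlapping loci.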

Additional observations from a re-analysis of the deposited data

How the results depend on the processing

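Only pooled values were deposited, so leaving out a replicate was not possible, and depth could not be weighed. No paired analysis was possible because the columns carry no replicate. None of the results changed direction past 1.5-fold under the alternatives run. The medians and offsets lie within 1.5-fold, so that limit cannot show a change of direction in them. In hepatocytes the median of long loci (-0.0050 to 0.085) and the difference at equal level took either sign. In MEFs and ES cells both stayed below 0. The difference between long and shorter loci of equal level lay between -0.25 and -0.12 for MEFs, between -0.10 and -0.0074 for ES cells, and between -0.043 and 0.0080 for hepatocytes. For MEFs it was -0.25 at a minimum of 0.1 FPKM, -0.17 at 5 FPKM, -0.25 without overlapping loci, -0.24 by own gene span, -0.16 with a pseudocount of 1 FPKM, -0.14 against loci of 20 to 200 kb, -0.13 at equal spliced length and -0.12 over loci measured in all 3 cell types. For ES cells it was -0.013 at a limit of 500 kb, -0.035 at 5 FPKM, -0.10 without overlapping loci or by own gene span, -0.037 against loci of 20 to 200 kb and -0.0074 at equal spliced length, and for hepatocytes -0.043 at 0.1 FPKM.

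The median log2 ratio of long loci was -0.41 for MEFs, -0.28 for ES cells and 0.085 for hepatocytes when centred on ribosomal protein genes, and -0.0050 in hepatocytes when centred on protein-coding genes. Over loci measured in all 3 cell types it was -0.068 in MEFs. Without overlapping loci or by own gene span it was -0.19 in MEFs and -0.11 in ES cells, and in ES cells -0.049 at a limit of 300 kb, -0.017 at 500 kb and -0.033 at a minimum of 5 FPKM.

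In MEFs the share of lower long loci was 4.87% past 2-fold, 33.4% centred on ribosomal protein genes, 13.2% at a limit of 500 kb, 21.2% at 0.1 FPKM, 20.6% without overlapping loci, 7.51% over loci measured in all 3 cell types and 10.3% with a pseudocount of 1 FPKM. The share of higher ones was 1.29% past 2-fold, 2.44% centred on ribosomal protein genes, 8.28% at 0.1 FPKM, 2.45% at 5 FPKM and 2.58% with the pseudocount. In hepatocytes 1.32% were lower and 1.32% higher past 2-fold, 6.89% lower and 11.6% higher at 0.1 FPKM, and the higher share was 4.36% over loci measured in all 3 cell types, 4.14% at 5 FPKM and 3.76% with the pseudocount. In ES cells the lower share was 0% past 2-fold, at a limit of 500 kb, at 5 FPKM and with the pseudocount, 4.30% centred on ribosomal protein genes and 2.49% at 0.1 FPKM. The higher share was 0% at a limit of 500 kb, without overlapping loci and by own gene span, and 5.35% at 0.1 FPKM. A pseudocount pulls weak genes toward 0 by its construction, and the cause of the other shifts was not tested. With a pseudocount of 1 FPKM, 15 named values no longer passed 1.5-fold, among them Robo1 in MEFs, Gpc3 in hepatocytes and Angptl2, D830031N03Rik, H60b, Klf12, Mgat5, Mipol1 and Zfp653 in ES cells. Alternatives by own gene span, without adhesion and matrix lists, over loci measured in all 3 cell types and at equal spliced length were chosen after seeing the data.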

Other observations

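Some of the highest members lie just behind another gene, and this was looked at after the values were seen. Among members whose own gene spans under 50 kb, 3 of 20 with a same-strand gene ending within 2 kb upstream were higher in Ad-Cre MEFs, against 8 of 134 without one. In the same sets 3 of 20 and 14 of 134 were lower, and the median log2 ratio was -0.082 with such a neighbour and 0.086 without one. In hepatocytes these counts were 2 of 14 and 10 of 121, and in ES cells 1 of 13 and 2 of 116. In shorter loci, which are more numerous, 17.9% of 803 genes with such a neighbour and 6.997% of 10218 without one were higher in MEFs. The shares were 12.03% of 790 and 5.498% of 9894 in hepatocytes, and 3.04% of 790 and 1.77% of 10076 in ES cells. Krtcap3, a gene of 1.53 kb in the long locus that holds Gckr, starts 103 bp after Nrbp1 and was 2.10 and 4.13 FPKM in MEFs (log2 ratio 0.98), where Nrbp1 was 33.2 and 34.9 FPKM, but it was 13.7 and 10.1 FPKM in hepatocytes (-0.44). Counterexamples among members include Zfp513, which starts 4 bp after Ppm1g and was 19.1 and 19.7 FPKM in MEFs (0.048), and Olfml3, 1813 bp after Hipk1, at 103 and 44.5 FPKM (-1.21). The source of these differences was not tested.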
